A study of Mus musculus with 12 samples.

Results

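The genes described here are 59 genes of mitosis and of the mitotic spindle, grouped by their known function. Their signals were followed in spinal cords of young and aged mice with and without a contusion. The list was set with earlier results of these data known, so its counts beside the shares of all genes are descriptions. Of the 59 genes, 58 were measured by at least 1 probe paired with that gene alone, among 18194 genes so measured in all, and each gene is given by its probe of highest mean signal over the 12 arrays. Ccnb1 (cyclin B1) had no such probe in the probe annotation used here and was not analysed here. All mice were female and of the strain C57BL/6 by the labels (C57BL/6J in the study's methods), either 2 to 3 months old (young) or 15 to 18 months old (aged). The 4 groups of 3 mice were young intact cord, young injured cord, aged intact cord and aged injured cord, and the intact cords are named normal by the submitters. Contusion was at the 9th thoracic level (Th9), injured cords were collected 9 days later, and RNA of 1 Th9 segment per mouse was hybridized to 1 whole-genome mouse microarray. A segment is bulk tissue of neurons, glia, vessels and meninges and, after injury, cells that entered from the blood, so fewer cells of a type and less RNA per cell cannot be told apart. Neuron, astrocyte and oligodendrocyte markers were above the signal cutoff in all 4 groups, as a spinal cord label requires.

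Mitosis is the step in which a cell that has copied its DNA divides the copies between daughter cells. The kinase CDK1, switched on by cyclins A and B, starts it, the chromosomes are compacted by condensin, the microtubules of the spindle attach to the kinetochores at the centromeres, and the spindle checkpoint holds the anaphase-promoting complex (APC/C) back until every chromosome is attached. Most of these genes are transcribed only in cells in the later part of the cell cycle, so their messages are widely used as markers of dividing cells. In intact adult cord most neurons do not divide, whereas oligodendrocyte precursors, microglia, astrocytes, vascular cells and infiltrating leukocytes can divide after an injury.

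Late cell cycle genes share short promoter elements, and the promoters of 6 of the genes are printed as examples. For 5 of these the signals rose after injury, and Bub3 goes against them. TTTGAA is the core of the cell cycle genes homology region (CHR), the element read by the MuvB complex, and CCAAT is the box bound by NF-Y. The 100 bases before the transcription start are given 5′ to 3′ on the strand of the gene, from RefSeq on GRCm38.p6, and the capitals mark every TTTGAA and CCAAT found on either strand, so that TTCAAA and ATTGG are the same motifs on the other strand.
Cdk1 (chr10:69352913-69353012, minus strand): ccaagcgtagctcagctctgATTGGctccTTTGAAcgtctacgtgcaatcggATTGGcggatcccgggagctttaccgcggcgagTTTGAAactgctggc
Top2a (chr11:99024190-99024289, minus strand): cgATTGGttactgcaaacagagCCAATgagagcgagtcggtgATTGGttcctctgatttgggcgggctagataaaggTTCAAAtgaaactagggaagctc
Kif11 (chr19:37376282-37376381, plus strand): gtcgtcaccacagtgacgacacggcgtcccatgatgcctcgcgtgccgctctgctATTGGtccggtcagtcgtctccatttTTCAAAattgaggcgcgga
Ube2c (chr2:164769829-164769928, plus strand): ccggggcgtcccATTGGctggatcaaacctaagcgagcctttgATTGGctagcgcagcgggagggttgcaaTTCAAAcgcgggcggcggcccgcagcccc
Cdc20 (chr4:118437344-118437443, minus strand): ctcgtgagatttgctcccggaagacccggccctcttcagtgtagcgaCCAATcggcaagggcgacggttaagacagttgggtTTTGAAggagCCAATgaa
Bub3 (chr7:131560270-131560369, plus strand): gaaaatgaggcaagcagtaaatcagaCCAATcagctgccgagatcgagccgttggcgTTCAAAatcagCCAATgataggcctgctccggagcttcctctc
The first 5 belong to genes that rose after injury, and Bub3, printed for 1 of its 2 start sites in the table, did not rise at either age on its brightest probe. RefSeq promoters of 300 bases, 250 before and 50 after a start, matched 49 of the genes with 54 promoters. TTTGAA was present in 72.2% of these 54 promoters, against 17.9% of all 32851 promoters in the table and 11.6% of the promoters of genes past the signal cutoff. CCAAT was present in 72.2%, against 37.4% of all promoters and 36.7% of those of genes past the cutoff. Both motifs were in 61.1% of the members' promoters and in 6.95% of all promoters, and 1 pair of matches overlapped. All 6 of the printed stretches of 100 bases hold both motifs, which is not so for every member. For Mki67 the CCAAT nearest to the start lay 141 bases before it, outside such a stretch. The 6 are therefore not to be read as typical of the genes. The match of letters is a description and does not show that a factor was bound. TTTGAA was also found in the promoters of Anln, Spag5, Bub3, Racgap1 and Kif4, the 5 genes tested that fell or did not pass the test after injury in young mice.

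The signals are MAS 5.0 values, a linear scale on which the trimmed mean of every array is 100, and 50 was the cutoff of the study. In intact cord the mitosis genes were mostly below this cutoff. The mean signal was above 50 for 8 of 58 genes in young intact cord (13.8%) and for 9 in aged intact cord (15.5%), whereas it was above 50 for 50.5% and 51.0% of all 18194 genes. After injury 27 of the 58 genes (46.6%) were above 50 in young mice and 46 (79.3%) in aged mice, with 52.7% and 51.7% of all genes. The median signal of the 58 genes was 12.8, 14.4 and 16.6 on the 3 young intact arrays and 11.3, 12.2 and 11.8 on the aged intact arrays. It was 41.9, 38.7 and 54.0 on the young injured arrays and 126.8, 63.0 and 92.3 on the aged injured arrays. Every injured array was above every intact array, and every aged injured array was above every young injured array.

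**Figure D1:**
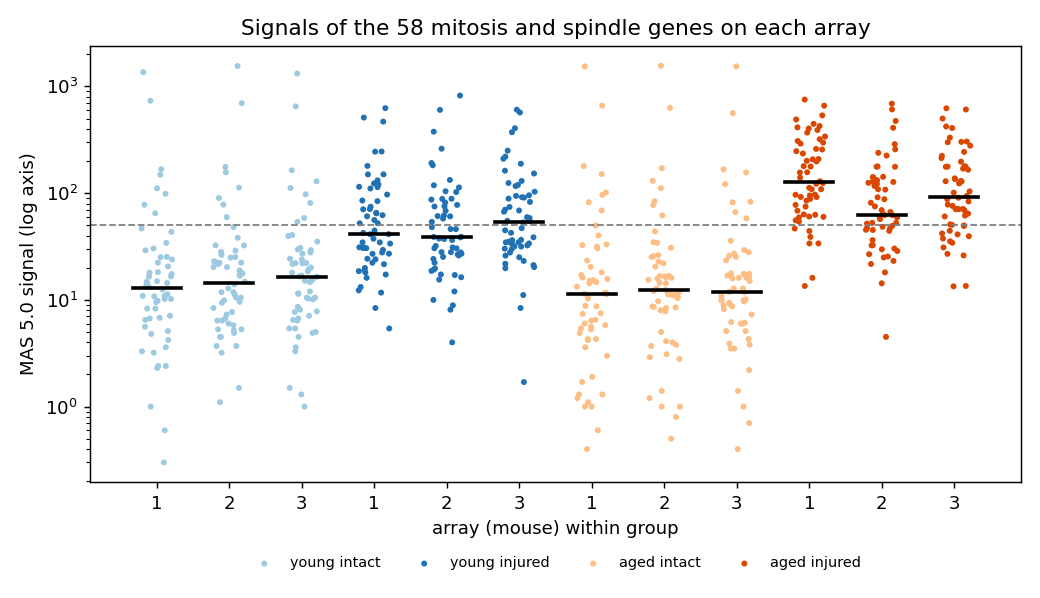
Each point is the MAS 5.0 signal (log axis) of 1 of the 58 mitosis and spindle genes on 1 array, the black bar is the median of the array and the dashed line is the cutoff of 50. The array medians lie between 11.3 and 16.6 in intact cord, between 38.7 and 54.0 in young injured cord and between 63.0 and 126.8 in aged injured cord.

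The order of the mice within the aged injured group was nearly the same for all of the mitosis genes. Aged injured array 1 had the highest signal of its group for 54 of the 58 genes and array 2 the lowest for 54, while this was so for 41.5% and 40.0% of all genes tested. The summed signal of 7 neuron markers ran the other way, at 1343 on array 1, 9171 on array 2 and 5879 on array 3, against 6461 to 9794 in young injured and 17870 to 18746 in intact cord. The summed signal of 10 macrophage and microglia markers was 37518, 32490 and 35512 on these 3 arrays and 26873 to 34793 on the young injured arrays, and all 10 markers were above 50 in both injured groups. In intact cord it was 2946 to 3302 in young and 5363 to 5731 in aged mice. Between the injured groups, 3 of 10 macrophage and microglia markers were higher in aged mice by the limma test described below. Of 6 astrocyte markers 3 were lower. Of all genes tested 4.41% were higher and 4.58% lower. No marker was called among those tested of neurons (7), oligodendrocytes (5), their precursors (5) and fibroblasts (5). The same held for neutrophils (4), endothelial cells (3) and Schwann cells (1). The 7 neuron and 5 oligodendrocyte markers all had lower mean log2 signals in aged than in young injured cord. An unadjusted p below 0.05 (limma) was found for 1 and 4 of these, and for 3168 of all 10511 genes tested. The 7 T and B cell markers with a probe were all under 50 in every group, with summed signals of 63.7 to 72.3 in young injured and 55.9 to 100.5 in aged injured cord. The part of these cell contents in the differences of the mitosis genes between the ages, which are given below also without array 1, was not tested.

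Injury at either age was followed by higher signals of nearly all of the genes past the cutoff. The mean signal of 46 genes exceeded 50 in 1 group or more, and of these 41 rose and 3 fell in young mice at a Benjamini-Hochberg adjusted p below 0.05 in limma, where 33.9% of the 10511 genes tested rose and 34.1% fell. In aged mice 43 of the 46 rose and 2 fell, where 35.6% of the genes tested rose and 39.9% fell. Most of the 46 passed the cutoff through the injured groups alone, and such genes were bound to be higher there. Over all 58 genes with no cutoff on signal, limma called 48 higher in young mice (23.4% of 18194 genes) and 53 in aged mice (24.1%). Over the 58 genes the median log2 difference was 1.85 (young) and 3.25 (aged), while over all genes with a probe it was 0.07 and -0.02. Signals under 50 hold little information on ratios, and with every group mean below 50 set to 50 these medians were 0.00 and 0.83. Fold changes below are ratios of group means with a mean under 50 set to 50 ("at least"), and none is given where both means were under 50.

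**Figure D2:**
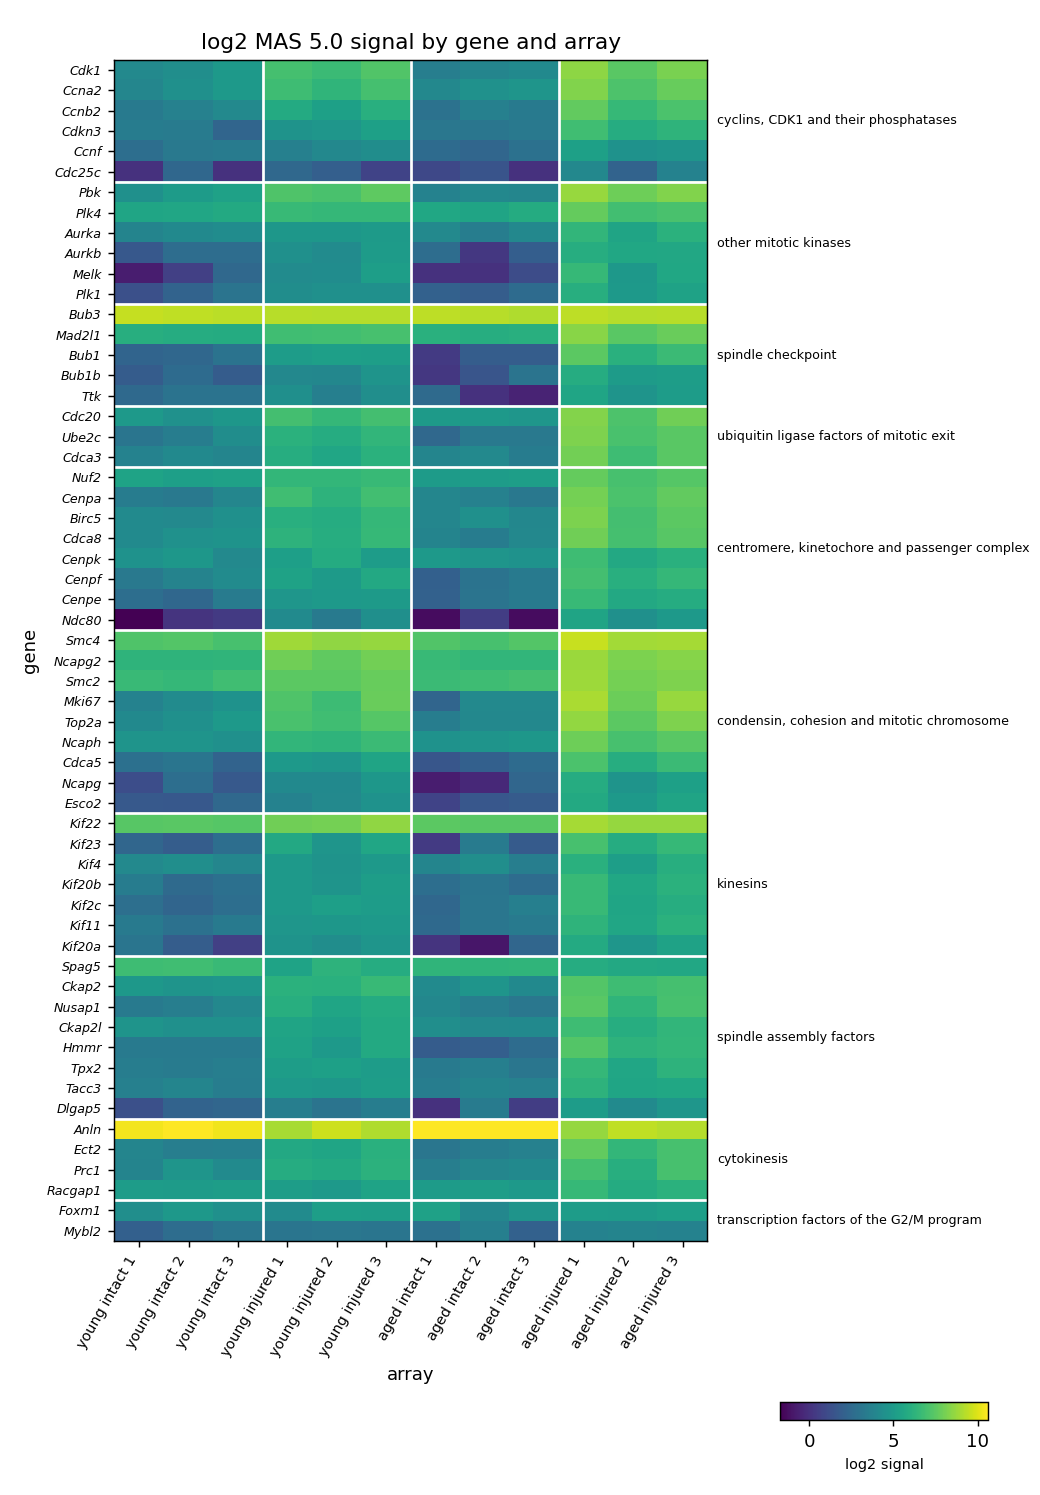
The colour gives the log2 MAS 5.0 signal of each of the 58 genes (rows, by function) on each of the 12 arrays (columns). Most rows are brighter on the injured arrays, the brightest on aged injured array 1, whereas Anln and Spag5 are dimmer on the injured arrays and Bub3 differs little.

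The injured cords of aged mice had higher signals of these genes than the injured cords of young mice. Of the 46 genes tested 28 were higher in aged injured cord and 0 were lower (limma, adjusted p below 0.05). Of all genes tested 4.41% were higher and 4.58% were lower. An unadjusted p below 0.05 was found for 40 of the 46, and for 3168 of all 10511 genes tested. The log2 differences of the 28 genes were 0.59 to 1.53, with adjusted p of 0.0120 to 0.04999. Over all 58 genes with no cutoff, limma called 20 higher, where 1.76% of 18194 genes were. For 49 of the 58 genes all 3 aged injured arrays were above all 3 young injured arrays, as they were for 10.2% of all genes. Of the 46 genes, 19 passed the signal cutoff through aged injured cord alone, and such genes were bound to be higher there than in young injured cord. These held 9 of the 28 calls, and the other 19 calls were among the 27 genes with both injured means above 50, where 4.66% of 9154 genes were called higher. With no test, a ratio of means above 2 and a mean above 50 in either injured group, 28 of the 46 genes were higher. Of 9834 genes, 1.39% were higher and 0.62% lower by this rule. It is a reading of the cutoffs of the study, whose methods do not state which injured groups had to pass the signal cutoff. The numbers of all genes called by this reading differ from those that the study reports. With both injured means above 50, a condition added after the data were seen, the ratio was above 2 for 15 of 27 genes, where it was for 0.918% of 9154 genes. The median log2 difference of the 58 genes was 1.02, against -0.06 over all genes, and it was 0.61 with group means under 50 set to 50. For the 27 genes with both injured means above 50, the ratio of aged to young was 0.894 to 3.01, with a median of 2.04.

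The number of genes called depended on single arrays, and so did the number over all genes. Without aged injured array 1 the median log2 difference was 0.78 and 8 genes were called, namely Birc5, Cdca3, Cdca8, Mad2l1, Ncaph, Nuf2, Racgap1 and Smc2, where 2.22% of all genes tested were called higher. Without aged injured array 2, 40 genes were called (11.7% of all genes tested), and without aged injured array 3, 7 were (1.88%). Leaving out young injured array 1, 2 or 3 gave 3, 3 and 13 genes (1.44%, 1.11% and 2.18% of all genes tested), and leaving out 1 intact array gave 14 to 21 (2.83% to 3.23%). With the 6 injured arrays alone 0 genes were called by limma, of the mitosis genes as of all genes. In that fit 40 of the 46 had an unadjusted p below 0.05, and the number of all genes at that p was not counted. A positive difference was found for 44 of the 46, and for 4619 of all 10511 genes tested. Nuf2, an arm of the kinetochore complex that grips microtubules, and Racgap1, a part of the centralspindlin complex of the dividing cell's midzone, passed the test in all 12 of the fits that left out 1 array. Nuf2 had both injured means above 50, whereas Racgap1 passed the signal cutoff through aged injured cord alone and was bound to be higher there. Nusap1, Tpx2, Top2a, Plk4 and Kif20b passed in only 1 of these 12 fits. Cdk1 and Ckap2 passed in 2, and Cdca5, Hmmr and Kif11 in 3. The counts by function below rest in part on such calls.

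**Figure D3:**
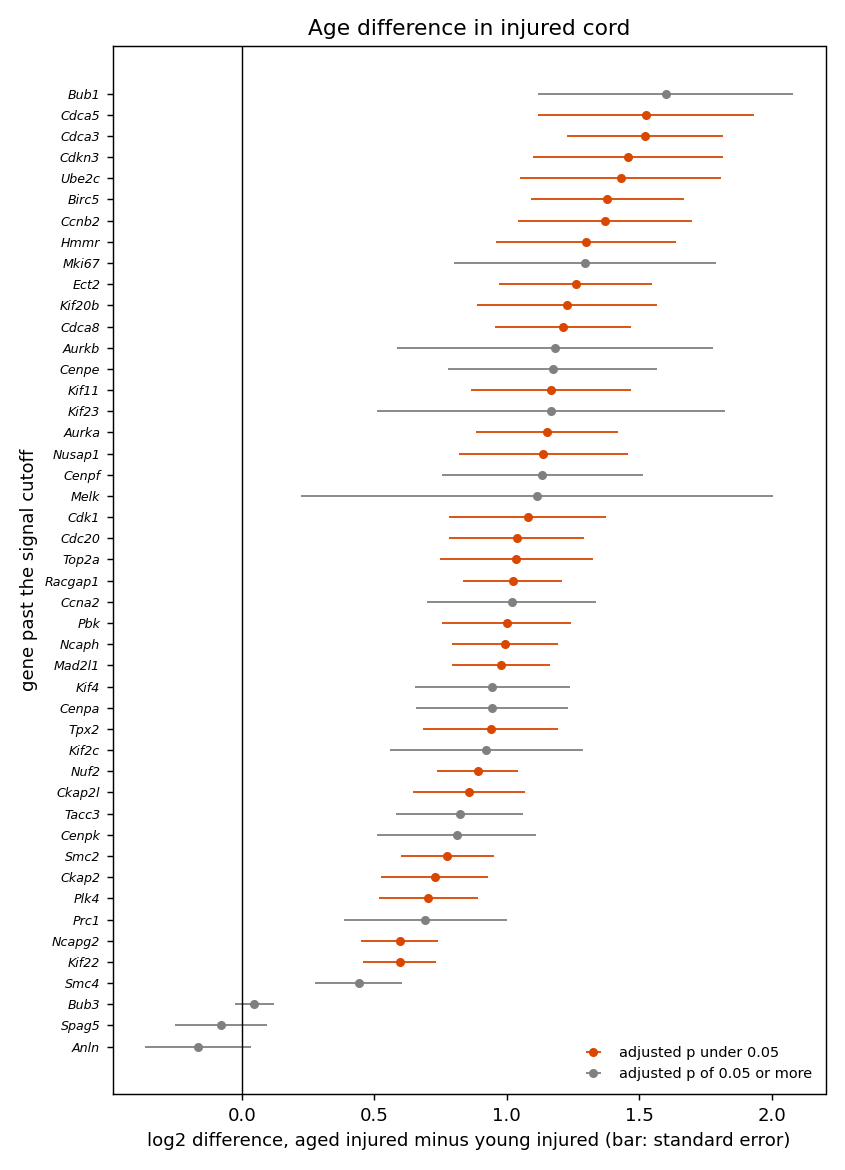
Each point is the log2 difference of 1 of the 46 genes tested, aged injured minus young injured cord, and the bar is its standard error. The 28 genes with an adjusted p below 0.05 lie between 0.59 and 1.53, and Bub3, Spag5 and Anln lie near 0.

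In intact cord no mitosis gene was called between the ages in either direction, where limma called 0.542% of the genes tested higher and 0.266% lower in aged mice. At an unadjusted p below 0.05 stood 8 of the 46 genes tested (Hmmr, Bub1, Pbk, Cenpf, Cdca8, Top2a, Spag5 and Bub3), and 1073 of all 10511 genes tested. The 8 all had the lower mean in aged cord, and the smallest adjusted p was 0.0968, for Pbk. Only Spag5 and Bub3 of these had means above 50 in intact cord. The median log2 difference of the 58 genes was -0.20. The injury difference, taken with its sign, was larger in aged than in young mice for 57 of the 58 genes, and for 7400 of all 18194 genes with a probe. The median interaction of the 58 genes was 1.31 on the log2 scale (0.55 with signals under 50 set to 50), against -0.09 over all genes with a probe. Of the 46 tested 36 had an unadjusted p below 0.05 for it, as had 1708 of all 10511 genes tested. Only Pbk passed the adjusted test of this interaction, where 0.133% of all genes tested were higher and 0.304% lower. Without aged injured array 2 this number was 22, where 2.34% of all genes tested were higher and 2.64% lower, and without aged injured array 1 it was 3 (0.392% and 0.698%). Leaving out any other array gave 0 or 1.

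Cyclins and the kinase that they switch on rose at both ages. Of the 4 genes of this group past the cutoff, 4 rose in young mice, 4 in aged mice, and 3 were higher in aged injured cord. The counts of this and the next groups are to be read against the shares of all genes tested. Of these, 33.9% rose in young and 35.6% in aged mice, and 4.41% were higher in aged injured cord. Genes whose ratio between the injured groups is given as "at least" passed the signal cutoff through aged injured cord alone. They were bound to be higher there. Cdk1, the kinase that drives entry into mitosis, had signals of 16.6, 20.3 and 30.7 in young intact cord, 124, 102 and 153 in young injured cord, 11.6, 14.5 and 17.3 in aged intact cord and 369.6, 177 and 279 in aged injured cord. The groups did not overlap except for the 2 intact groups, and aged injured over young injured was 2.18-fold (log2 1.08 ± 0.30 (SE), adjusted p = 0.0464). The rise with injury was at least 2.52-fold in young mice (adjusted p = 3.33e-05) and at least 5.5-fold in aged mice (adjusted p = 6.01e-07). Ccna2, cyclin A2, had 111, 81.6 and 124 on the young injured arrays and 308, 142 and 213 on the aged injured arrays, with 15.0 to 29.7 in intact cord. Its injured groups did not overlap, but the age difference did not pass the test (log2 1.02 ± 0.32 (SE), adjusted p = 0.0683). Ccnb2, a B-type cyclin, was 2.65-fold higher in aged injured cord, at 143 ± 55.0 against 54.0 ± 14.2 (SD, n = 3, adjusted p = 0.0309). Cdkn3, a phosphatase that acts on cyclin-dependent kinases, was at least 1.66-fold higher (adjusted p = 0.0341). Ccnf and Cdc25c stayed under a mean of 50 in every group, Ccnf with 38.9, 23.2 and 26.1 on the aged injured arrays.

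**Figure D4:**
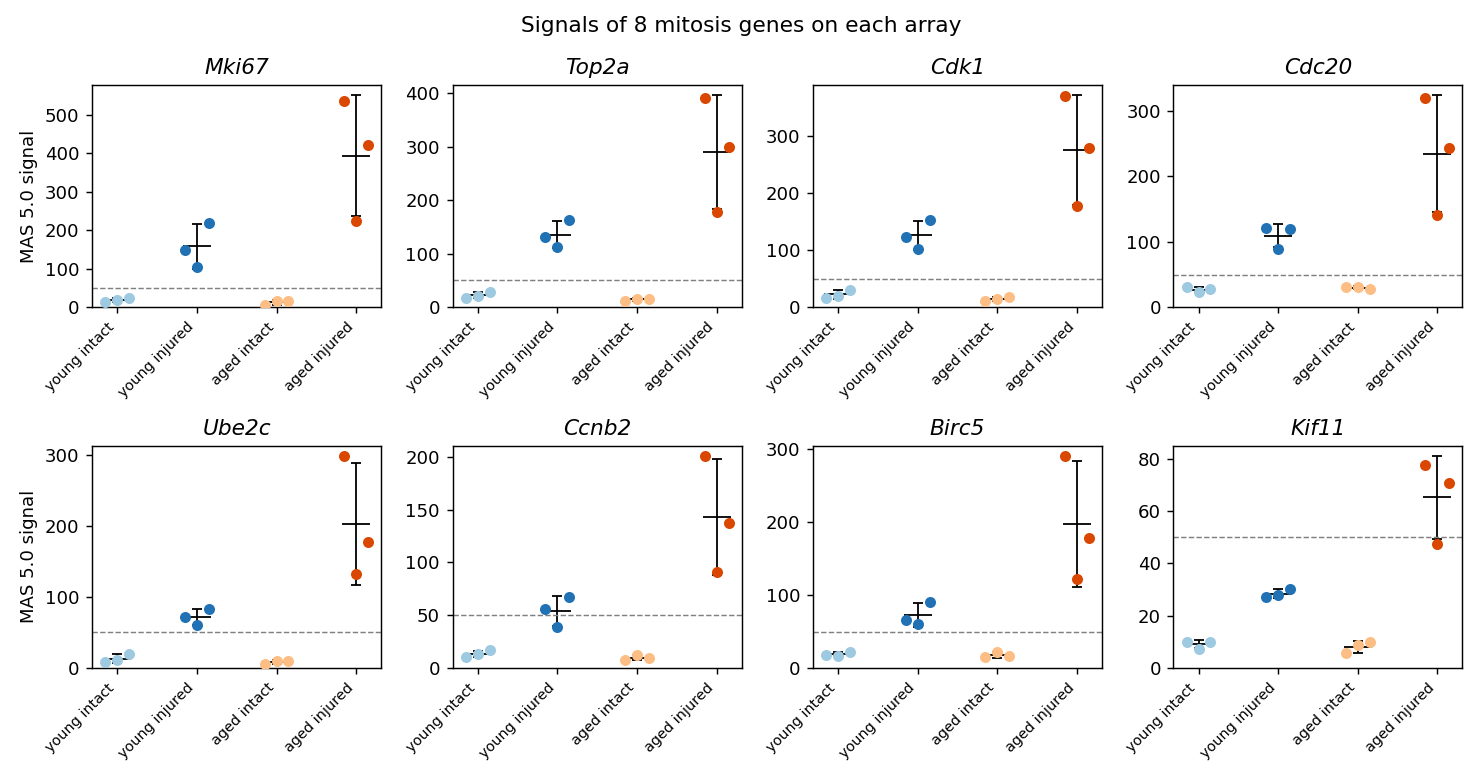
MAS 5.0 signal of 8 mitosis genes on each array (points), with the mean and SD of the 3 arrays of a group (black) and the cutoff of 50 (dashed line). All intact signals lie below 50, and for each of the 8 genes all 3 aged injured arrays lie above all 3 young injured arrays.

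Of the other mitotic kinases, 5 of 6 passed the cutoff, all 5 rose at both ages, and 3 were higher in aged injured cord. Pbk, a kinase of dividing cells, had 149.8, 133 and 189 in young injured and 414, 239 and 304 in aged injured cord, a ratio of 2.03-fold (adjusted p = 0.0321). In intact cord it had 22.3, 32.4 and 40.6 in young and 13.3, 16.1 and 15.0 in aged mice, and this difference in intact cord did not pass the test (adjusted p = 0.0968). Plk4, the kinase that starts the copying of centrioles, had 43.8 to 58.2 over the 6 intact arrays, 97.0, 88.3 and 88.9 in young injured and 208, 117 and 136 in aged injured cord. Aged over young injured cord was 1.68-fold, with the widest gap on aged injured array 1 (adjusted p = 0.0419). Aurka, a kinase of the spindle poles, was at least 1.34-fold higher (adjusted p = 0.0282). Aurkb, the kinase of the chromosomal passenger complex, had 22.3, 18.7 and 32.4 in young injured and 62.7, 49.4 and 51.0 in aged injured cord. Melk, another kinase of dividing cells, had 18.6, 19.2 and 36.3 in young injured and 92.0, 28.7 and 49.8 in aged injured cord. The aged means of both were near the cutoff, and neither passed the test between the ages (adjusted p = 0.205 and 0.397). Plk1, a kinase used throughout mitosis, was under the cutoff, with 19.9, 22.3 and 21.8 in young injured and 63.2, 30.3 and 41.9 in aged injured cord.

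Among the spindle checkpoint genes Bub3 stood apart from the others. Mad2l1, which binds and holds back CDC20, had 64.8, 59.6 and 58.5 in young intact, 114, 119 and 130.2 in young injured, 68.8, 61.9 and 66.3 in aged intact and 339.5, 177 and 224 in aged injured cord. All 4 means were above 50, the rise with injury was 1.98-fold in young mice (adjusted p = 0.000805) and 3.76-fold in aged mice (adjusted p = 7.16e-06), and aged over young injured cord was 2.04-fold (adjusted p = 0.0158). Bub1, a checkpoint kinase, had 1.30 to 7.70 in intact cord, 33.7, 37.6 and 36.6 in young injured and 179, 69.4 and 104 in aged injured cord. The ratio of the injured groups was at least 2.35-fold, the log2 difference of 1.60 was the highest of the 46 genes, and it did not pass the test (adjusted p = 0.0611). Bub3, which carries BUB1 to the kinetochore, was far above the cutoff in intact cord, at 735, 697 and 650.2 in young and 661, 631 and 562 in aged mice, with 626, 603 and 605 in young injured and 660.1, 609.5 and 624 in aged injured cord. It fell slightly in young mice (log2 -0.18 ± 0.07 (SE), adjusted p = 0.046) and did not pass the test in aged mice (log2 0.03, adjusted p = 0.695) or between the injured groups (log2 0.05, adjusted p = 0.68). A second probe of Bub3 gave means of 244 and 169.6 in young and 234 and 131 in aged intact and injured cord, so the probes disagree for aged mice. Bub1b and Ttk were under the cutoff in every group, with means of 18.9 and 18.0 in young injured and 42.6 and 35.5 in aged injured cord.

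Of the factors that help to tag proteins for destruction in mitosis, 3 of 3 rose in young mice, 3 in aged mice, and 3 were higher in aged injured cord. Cdc20, which activates the APC/C, had 121, 88.7 and 119 in young injured and 320.5, 142 and 243 in aged injured cord, with 23.0 to 31.5 in intact cord. The aged signals were 2.15-fold the young ones (log2 1.04 ± 0.25 (SE), adjusted p = 0.0333). A second probe of Cdc20 had means of 54.4 in young and 79.2 in aged injured cord, a smaller log2 difference of 0.52. Ube2c, the ubiquitin-conjugating enzyme of the APC/C, had 71.0, 60.6 and 82.8 in young and 298, 132 and 177 in aged injured cord, a ratio of 2.83-fold (adjusted p = 0.0414). Cdca3, known as a trigger of entry into mitosis, had 62.2, 48.1 and 70.0 in young and 257, 109 and 178 in aged injured cord. Its ratio of 3.01-fold was the highest of the genes with both injured means above 50 (log2 1.52 ± 0.30 (SE), adjusted p = 0.0165).

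Of the centromere, kinetochore and passenger complex genes, 7 of 8 passed the cutoff, all 7 rose at both ages, and 3 were higher in aged injured cord. Nuf2 had 43.4, 38.2 and 39.6 in young intact, 85.3, 87.0 and 94.3 in young injured, 32.6, 34.2 and 35.8 in aged intact and 209, 128 and 166 in aged injured cord. The groups of each age and the injured groups did not overlap, and the ratio of 1.89-fold between the injured groups had the lowest adjusted p of the 46 genes (0.012, limma). Birc5, survivin of the passenger complex, had 65.4, 61.0 and 90.8 in young and 291, 122 and 179 in aged injured cord (2.73-fold, adjusted p = 0.0205). Cdca8, borealin of the same complex, had means of 76.0 ± 15.0 and 181 ± 62.0 (SD, n = 3, 2.38-fold, adjusted p = 0.0209). Cenpa, the histone H3 variant that marks centromeres, had 115, 75.3 and 116 in young and 259.9, 140.1 and 197 in aged injured cord and missed the threshold (log2 0.95 ± 0.29 (SE), adjusted p = 0.0617). Cenpf and Cenpe, proteins of the outer kinetochore, were under a mean of 50 in young injured cord. In aged injured cord Cenpf had 123, 66.6 and 90.7 and Cenpe had 97.0, 51.8 and 60.5, and neither passed the test between the ages (adjusted p = 0.0801 and 0.0806). Cenpk, of the inner kinetochore, had 37.4, 57.8 and 34.0 in young and 109, 52.7 and 69.1 in aged injured cord, which overlapped (adjusted p = 0.102). Ndc80, the partner of NUF2, was under the cutoff in every group, with 44.2, 21.7 and 31.0 in aged injured cord.

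Of the 9 genes of condensin, of cohesion and of the mitotic chromosome, 7 passed the cutoff, all 7 rose at both ages, and 5 were higher in aged injured cord. Mki67, which coats mitotic chromosomes and is the common marker of dividing cells, had 13.3, 18.9 and 23.9 in young intact, 150.1, 104 and 219.9 in young injured, 4.90, 16.8 and 16.9 in aged intact and 535, 225 and 422 in aged injured cord. Its rise in aged mice, at least 7.88-fold, was the highest such bound of the genes (adjusted p = 6.28e-06), and it was at least 3.16-fold in young mice (adjusted p = 0.000305). The injured groups did not overlap, with a ratio of 2.49-fold, but the spread between mice was wide and the age difference did not pass the test (log2 1.29 ± 0.50 (SE), adjusted p = 0.112). Top2a, the topoisomerase that untangles sister chromatids, had 132, 113 and 162 in young and 390.3, 178 and 300 in aged injured cord, a ratio of 2.13-fold at the edge of the threshold (adjusted p = 0.0494).

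Smc4, Smc2 and Ncapg2 of condensin had means above 50 in intact cord too, so their ratios were measured on both sides. Smc4, a core subunit, had 129 to 157 over the intact arrays, 468, 377 and 406 in young injured and 754, 475 and 500.0 in aged injured cord, so that it rose 2.88-fold in young and 3.95-fold in aged mice (adjusted p = 1.75e-05 and 2.17e-06). Between the injured groups its ratio of 1.38-fold did not pass the test (adjusted p = 0.105). Ncapg2, a subunit of condensin II, had 246, 192 and 250.2 in young and 426, 288 and 332 in aged injured cord and was 1.52-fold higher in the latter (adjusted p = 0.0321). Smc2, the other core subunit, was 1.76-fold higher, at 335 ± 98.7 against 191 ± 16.8 (SD, n = 3, adjusted p = 0.0254). Ncaph, of condensin I, was 2.04-fold higher (adjusted p = 0.0185), and Cdca5, sororin of cohesion, was at least 2.02-fold higher (adjusted p = 0.0427). Ncapg and Esco2 were under the cutoff in every group.

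Of the kinesins, motor proteins that walk on or shorten spindle microtubules, 6 of 7 passed the cutoff, 5 rose in young and 6 in aged mice, and 3 were higher in aged injured cord. Kif22, a motor on chromosome arms, had 164 to 179 in intact cord, 245, 261 and 372 in young injured and 490.4, 409.9 and 408 in aged injured cord (1.49-fold between the injured groups, adjusted p = 0.0287). Kif11, the motor that pushes the spindle poles apart, had 27.1, 28.0 and 30.2 in young and 77.6, 47.3 and 70.8 in aged injured cord and was at least 1.3-fold higher in aged mice (adjusted p = 0.0382). The young injured values were all under 50 and close to each other. Kif20b, a motor of late mitosis, was at least 1.44-fold higher (adjusted p = 0.0469). Kif11 and Kif20b passed the signal cutoff through aged injured cord alone, and Kif22 had both injured means above 50 on its brightest probe only. Kif23, the motor of centralspindlin, had 52.2, 26.1 and 47.0 in young and 129, 59.7 and 94.0 in aged injured cord. Kif2c, which shortens microtubules at kinetochores, had 31.1, 37.2 and 33.8 in young and 95.1, 45.4 and 61.7 in aged injured cord. Neither passed the test between the ages (adjusted p = 0.245 and 0.12). Kif4, a motor of the chromosomes and the spindle midzone, was the only kinesin tested that did not pass in young mice (30.8, 24.2 and 30.0 after injury against 16.6, 20.3 and 15.4, adjusted p = 0.0508), while it rose at least 1.13-fold in aged mice (adjusted p = 0.000184). Between the injured groups it had an adjusted p of 0.0646. Kif20a was under the cutoff in every group.

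Of the spindle assembly factors, 7 of 8 passed the cutoff, 6 rose and 1 fell at both ages, and 5 were higher in aged injured cord. The gene that fell was Spag5, astrin, a protein of spindle poles and kinetochores, with 111, 113 and 97.6 in young intact and 42.4, 75 and 59.5 in young injured cord. In aged mice it had 82.3, 77.5 and 82.0 in intact and 60.4, 52.7 and 50.5 in injured cord. Injured over intact was 0.550 in young mice (log2 -0.90 ± 0.17 (SE), adjusted p = 0.000999) and 0.677 in aged mice (log2 -0.57 ± 0.17 (SE), adjusted p = 0.0118), and the injured groups overlapped (adjusted p = 0.768). Ckap2, which stabilizes spindle microtubules, had 70.6, 68.4 and 95.5 in young and 157, 108 and 124 in aged injured cord (1.66-fold, adjusted p = 0.0488). Nusap1 was 2.29-fold higher in aged injured cord (adjusted p = 0.04999), and Hmmr, Tpx2 and Ckap2l were at least 2.13-fold, at least 1.41-fold and at least 1.7-fold higher (adjusted p = 0.0399, 0.0445 and 0.0347). TPX2 is the activator of Aurora A on the spindle. Tacc3, a stabilizer of spindle fibres, had 30.7, 28.0 and 35.1 in young and 74.8, 45.2 and 49.3 in aged injured cord and missed the threshold (adjusted p = 0.0564). A second probe of Tacc3 went the other way, with means of 31.3 in young and 24.2 in aged injured cord, both under 50. Dlgap5 was under the cutoff in every group.

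The 4 cytokinesis genes went in different directions after injury. Anln, anillin, the scaffold of the contractile ring, is also known from the myelin of oligodendrocytes. It had signals of 1362, 1553 and 1320.4 in young intact, 511, 822 and 569.8 in young injured, 1541, 1562 and 1542 in aged intact and 404, 689.7 and 608 in aged injured cord. Every injured array was below every intact array, the ratio of injured to intact was 0.449 in young mice (log2 -1.18 ± 0.20 (SE), adjusted p = 0.000388) and 0.366 in aged mice (log2 -1.48 ± 0.20 (SE), adjusted p = 5.71e-05), and the injured groups overlapped (adjusted p = 0.574). A second, dimmer probe of Anln differed by a log2 of -1.18 in young and -1.69 in aged mice. The summed signal of 5 oligodendrocyte markers was 18455 to 19264 in young intact and 17360 to 20195 in young injured cord, and 16363 to 17664 in aged intact and 13070 to 16942 in aged injured cord, and its part in the fall of Anln was not tested.

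Racgap1 rose in aged mice and did not pass the test in young mice. It had 34.2, 32.5 and 35.2 in young intact and 34.6, 30.4 and 42.5 in young injured cord, which overlapped (log2 0.06 ± 0.19 (SE), adjusted p = 0.774), and 33.1, 34.7 and 29.3 in aged intact and 92.2, 57.1 and 71.1 in aged injured cord. It rose at least 1.47-fold in aged mice (adjusted p = 0.00021) and, after injury, was at least 1.47-fold higher in aged than in young cord (adjusted p = 0.0142), but the interaction did not pass the adjusted test (log2 1.09 ± 0.27 (SE), adjusted p = 0.108). A second probe of Racgap1 gave means of 26.1 and 29.8 in young and 26.7 and 58.9 in aged intact and injured cord. Ect2, the exchange factor that RACGAP1 activates, had 52.2, 46.0 and 68.8 in young and 198, 87.8 and 130.2 in aged injured cord (2.49-fold, adjusted p = 0.0269). Prc1, which bundles midzone microtubules, had 60.7, 53.8 and 74.3 in young and 124, 63.7 and 129 in aged injured cord, which overlapped (adjusted p = 0.16).

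**Figure D5:**
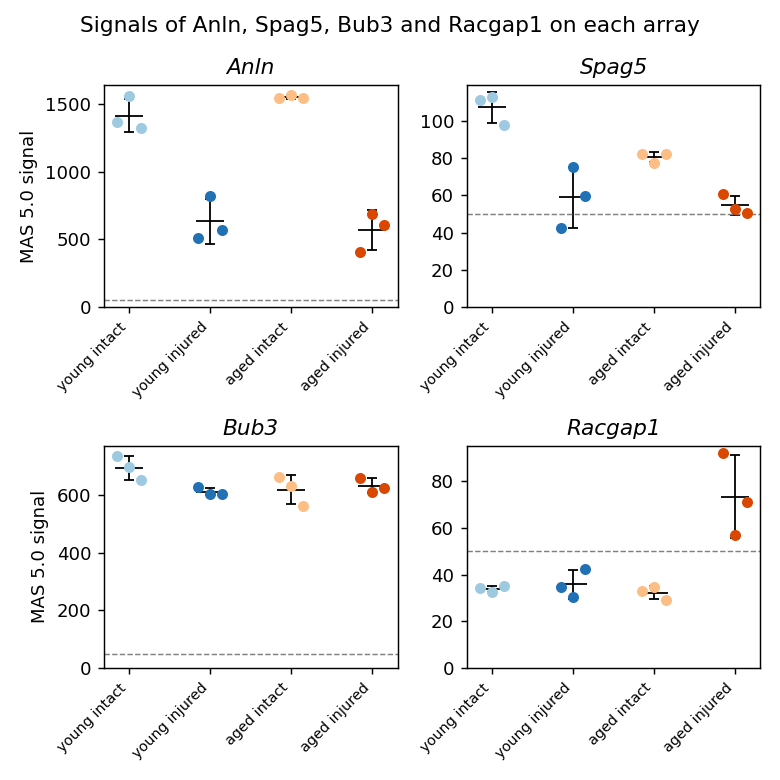
MAS 5.0 signal of Anln, Spag5, Bub3 and Racgap1 on each array (points), with the mean and SD of the 3 arrays of a group (black) and the cutoff of 50 (dashed line). Anln and Spag5 are lower in the injured groups, Bub3 lies between 562 and 735 in all groups, and Racgap1 is above 50 on the aged injured arrays only.

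The transcription factors known to drive this program, Foxm1 and Mybl2, were below the cutoff in every group. Foxm1 had 20.6, 29.0 and 22.2 in young intact, 18.9, 36.4 and 34.7 in young injured, 40.1, 15.9 and 25.4 in aged intact and 33.8, 32.5 and 37.6 in aged injured cord, and the injured groups overlapped. Mybl2, B-MYB, had 4.20, 6.40 and 8.60 in young intact, 8.40, 8.90 and 8.40 in young injured, 7.40, 12 and 4.30 in aged intact and 13.5, 14.3 and 13.5 in aged injured cord. Neither was tested in the fit with the cutoff. Over the 12 genes below the cutoff, the signals were at most 29.0 in young intact, 36.4 in young injured, 40.1 in aged intact and 63.2 in aged injured cord, and 5 of the aged injured values were above 50.

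Other genes of the pathway were counted in lists set by function, to be read against the shares of all genes tested that rose and fell in young mice (33.9% and 34.1%) and in aged mice (35.6% and 39.9%) and that were higher and lower in aged injured cord (4.41% and 4.58%). Of 64 other mitosis genes, 62 had a probe and 33 passed the cutoff, 19 rose and 5 fell in young mice, 23 rose and 2 fell in aged mice, and 8 were higher and 0 lower in aged injured cord (limma, adjusted p below 0.05). Their median log2 difference over the 62 genes was 0.94 in young mice, 1.51 in aged mice and 0.63 between the injured groups. The 3 with the highest mean signal were Zwint, Pttg1 and Kpna2, of which Zwint and Pttg1 fell at both ages and Kpna2 rose at both. Of the 15 subunits and activators of the APC/C, the complex that CDC20 switches on, 2 rose and 2 fell in young mice, and 3 rose and 3 fell in aged mice. None of the 15 was called between the injured groups, where 3 had an unadjusted p below 0.05, as had 3168 of all 10511 genes tested. Of the MuvB and DREAM complex, which reads the CHR, 8 of 12 genes were tested, 5 rose and 1 fell at each age, and 1, Tfdp1, was higher in aged injured cord (means of 308 and 232, adjusted p = 0.0475). Of 21 genes of DNA replication, the step before mitosis, 17 were tested, 12 rose in young and 17 in aged mice, and 10 were higher in aged injured cord.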

How the data were processed

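The 12 Affymetrix whole-genome mouse arrays fell into 4 groups of 3 mice by the labels, 1 array per mouse. The deposited values are signal intensities that the authors computed with MAS 5.0, an algorithm that subtracts local background and brings arrays to 1 scale, and every array was found to have a trimmed mean (2% at each end) of 100. Their number limits the precision. The platform annotation names 1 gene for 34958 of the 45101 probes, several genes for 932 and no gene for 9211.

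Each gene was taken as its single-gene probe of highest mean signal. The log2 of the deposited intensities was tested with limma 3.58.1 in R 4.3.3 (1 mean per group, all 12 arrays, eBayes with trend), for 10511 genes with a mean above 50 in at least 1 group, and p-values were adjusted over all of them in each comparison (Benjamini-Hochberg, threshold 0.05). Medians over the genes are descriptions without a test. The script was tested on simulated data. Some genes are given with values of single arrays, many of them on injured arrays alone or with intact values as a range. They are the 2 of highest mean signal in each function group, and Mki67, Top2a, Cdk1, Foxm1 and Mybl2. Genes tested but not called after injury or between the injured groups were included. So were the 3 largest called age differences with both injured means above 50. Others (such as Kif11 and Plk1) were added after their values were seen. The genes, their groups and all lists were chosen with earlier results of these data known.

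Alternatives were quantile normalization, centring, an offset of 16, a floor at 50, other signal cutoffs, all probes of a gene, no trend, array weights, only the arrays compared, a replicate block, the cutoffs of the study (also with both injured means above 50, chosen after seeing the data) and leaving out each array.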

Additional observations from a re-analysis of the deposited data

Results flagged for a closer look

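Pbk, a kinase of dividing cells, had an injury difference that was larger in aged than in young mice by 2.06 on the log2 scale (limma interaction, adjusted p = 0.0376), and it was flagged because the 2 ages differed by this test. Its signals rose from 13.3 to 16.1 in aged intact cord to 239 to 414 in aged injured cord, and from 22.3 to 40.6 to 133 to 189 in young mice. All intact signals were under 50, so the size of the interaction rests on values that hold little information on ratios. It was 1.00 with signals under 50 set to 50 (adjusted p = 0.0748), and the adjusted p was between 0.0152 and 0.118 when 1 array was left out. It was 0.0521 with no cutoff on signal.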

How the results depend on the processing

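Under the alternatives, none of the called genes changed direction. Of the results of single called genes, 416 kept and 231 lost their call between the injured groups, as did 963 and 41 after injury in young mice and 1022 and 3 in aged mice, and the interaction of Pbk was kept under 11 and lost under 12. The cause of the changes below was not tested, except that stricter cutoffs and the median over all probes left fewer genes to test (30 with a mean above 100 in 1 group, 27 with a mean over all arrays above 50 and 27 with all probes). With these settings in that order, the genes that rose in young mice were 27, 24 and 24, those in aged mice 27, 24 and 26, and those higher in aged injured cord 17, 16 and 14. With all probes, 1 gene fell at each age and 2 passed the interaction. With the cutoffs of the study, 20 genes rose and 1 fell in young mice, and 1 fell in aged mice, and with both injured means above 50, an alternative chosen after seeing the data, 15 of 27 were higher in aged injured cord. With signals under 50 set to 50, 17 rose in young mice, 0 passed the interaction, and the median log2 differences were 0.0104 in young mice, 0.79 in aged mice, 0.60 between injured groups and 0.55 for the interaction. With an offset of 16 the medians were 0.93 in young mice, 1.81 in aged mice and 0.85 for the interaction, and 39 genes were higher in aged injured cord. With all probes they were 1.52 in young and 2.7 in aged mice. With only the arrays compared, 0 genes were called between the injured groups and 2 were lower in aged intact cord, where 2.07% of all genes tested were lower. With array weights 3 were lower in aged intact cord (2.46% of all genes tested) and 23 passed the interaction (3.24% higher and 4.62% lower), with quantile normalization 2 passed it, and with no cutoff 0 did.

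Leaving out 1 array gave 40 to 43 genes that rose and 2 to 3 that fell in young mice, 41 to 44 and 2 to 2 in aged mice, 3 to 40 higher and 0 to 0 lower in aged injured cord, 0 to 0 higher and 0 to 1 lower in aged intact cord, and 0 to 22 higher and 0 to 0 lower for the interaction, the 22 without aged injured array 2. The medians were 1.73 to 1.95 in young mice, 2.98 to 3.47 in aged mice, 0.78 to 1.25 between the injured groups, -0.28 to -0.11 in intact cord and 1.05 to 1.53 for the interaction.

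The replicate numbers were not taken to pair the arrays, since not every same-numbered pair correlated above 0.1 in its deviations from the group means. The pairs of young and aged injured arrays correlated at 0.595, 0.667 and 0.0145, and all other pairs between -0.113 and 0.0893. With the replicate number as a block, 41 genes rose and 3 fell in young mice, 43 and 2 in aged mice, 25 were higher in aged injured cord, 0 were called in intact cord and 0 for the interaction, where Pbk had an adjusted p of 0.06. Signals under 50 limit all ratios, and 3 mice per group limit the tests.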
